A study of Mus musculus with 12 samples.

Results

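The PD-L1 antibody main effect is the average difference in RNA level between liver immune cells of mice that received an antibody to PD-L1 and those of mice that did not. It was estimated over all 12 libraries of the series, 6 with the antibody against 6 without, and every library was used. Polyinosinic-polycytidylic acid (polyIC), the other treatment of the study, was a second term of the fit, so each library with antibody was set against libraries with the same polyIC treatment. Of 24319 entries in the table, 11978 genes were tested.

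The groups with antibody were combination (polyIC at 4 mg/kg plus 200 µg of PD-L1 antibody) and antiPDL1 (PBS plus 200 µg of PD-L1 antibody), and those without were polyIC (polyIC at 4 mg/kg plus 200 µg of IgG) and control (PBS plus 200 µg of IgG), with 3 libraries each. PolyIC or PBS went into the peritoneum on days 14, 16, 18, 20 and 22, and antibody or IgG was given on days 17, 19 and 21. All mice, controls included, were C57BL/6 and had human c-Myc and N-ras genes delivered to the liver by hydrodynamic transfection on day 0, a rapid high-volume injection that drives DNA into hepatocytes. Cells positive for CD45, the common leukocyte antigen, were captured with magnetic beads from livers taken on day 24 by the protocol, while the time point label reads day 22. The labels do not say that the libraries of a group came from separate mice, so p-values measure the spread between libraries, which may be technical.

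PD-L1, encoded by Cd274, is a surface ligand that engages the receptor PD-1 on T cells and restrains them. Interferon gamma from T cells and NK cells induces IRF1, guanylate-binding proteins, immunity-related GTPases, chemokines that bind CXCR3, antigen presentation genes and Cd274 itself. Antibodies to PD-L1 release that brake, and the liver holds resident macrophages (Kupffer cells) and sinusoidal endothelium beside its lymphocytes.

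The values were taken as FPKM, fragments scaled to transcript length and to the mapped fragments of the library, with library totals between 476111 and 677535. The small RNA entry Mir6236 alone made up from 4.97% (control replicate 0) to 20.6% (combination replicate 2) of a library's total. Some results are therefore also given after rescaling without it. Relative depth, read from steps in low values, ran from 0.471 to 1, and averaged 0.696 with antibody and 0.646 without. The leukocyte genes that define the sort were present in every library, with a summed level of 3164 to 5300 FPKM with antibody and 2882 to 4331 FPKM without. A few libraries stood apart from their labels. The library labelled antiPDL1 replicate 2 correlated across genes at 0.952 with control libraries and at 0.928 with its own group. For control replicate 2 the values were 0.935 with polyIC libraries and 0.922 with the other controls. AntiPDL1 replicate 0 stood at 0.961 with combination libraries, against 0.942 within antiPDL1. Results are therefore also given without antiPDL1 replicate 2, or without it and control replicate 2. AntiPDL1 replicate 2 was picked because it resembled the controls. Larger differences and counts without it follow in part from that choice and add no support. The 29 hepatocyte genes, which should be low after a CD45 sort, summed to 544.8 FPKM at the lowest, 927.6 at the median and 3656 at the highest with antibody. Without antibody the same sums were 2369, 3883 and 7391 FPKM, and none of these genes was at 0 in any library. What part this difference has in the results was examined only by a fit with the hepatocyte level as a covariate, given last.

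With the antibody, 323 genes rose and 761 fell at an adjusted p under 0.05 in limma (Benjamini-Hochberg over all 11978 genes, two-sided), which is 2.7% and 6.35% of the genes tested, 9.05% together. The median difference of all tested genes was 0.03 on the log2(FPKM + 1) scale, and 3647 had an unadjusted limma p under 0.05. Rises had a median of 0.77 and falls of -1.02, and 85 rises and 393 falls were of at least 1. After quantile normalization the split was 473 higher and 420 lower, and without the polyIC term limma called 0 genes, with 2669 at an unadjusted p under 0.05. In only 19 of the rises and 45 of the falls did all 6 libraries with antibody lie beyond all 6 without. Over all genes tested that held for 88, or 0.735%. The pairs, combination against polyIC and antiPDL1 against control, were both apart in 142 of the rises and 260 of the falls. Among all 11978 genes tested, 534 had both pairs apart. On this scale a difference understates the change of genes with low FPKM.

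Genes of the interferon gamma response rose together. Of 31 tested genes in this list, which also holds the MHC class I pathway, 17 rose and 0 fell, with a median difference of 0.95 against 0.03 over all genes. All but Irf8, at -0.17, had a positive difference. Gbp2, a guanylate-binding protein that acts on vacuoles of intracellular pathogens, had 357, 411 and 317 FPKM in combination, against 118, 91.9 and 77.9 FPKM in polyIC. It had 421, 488 and 85.7 FPKM in antiPDL1, against 66.6, 103 and 61.6 FPKM in control. The groups with and without polyIC thus showed the same order, except that the library antiPDL1 replicate 2 lay among the controls. The difference for Gbp2 was 1.85 ± 0.36 (SE, limma adjusted p = 0.0174), and 2.21 without that library. With each library left out in turn it ran from 1.66 to 2.21.

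Cxcl10 and Cxcl9 encode chemokines that attract CXCR3-bearing T cells and NK cells. Cxcl10 had 60.6, 225 and 419 FPKM with antibody (lowest, median and highest of 6) and 38.6, 61.9 and 76.6 FPKM without. Its difference was 1.78 ± 0.37 (SE, limma adjusted p = 0.0197). Cxcl9 had 61.5, 192 and 375 FPKM with antibody and 36.3, 53.6 and 81.0 FPKM without, a difference of 1.74 ± 0.35 (SE, limma adjusted p = 0.0187, exact permutation p = 0.01). In both genes the lowest library with antibody was antiPDL1 replicate 2, the one library that overlapped those without. Other called genes of the list included the GTPase genes Gbp3, Gbp4, Gbp5, Gbp6, Gbp7, Irgm1, Irgm2, Igtp, Iigp1 and Tgtp1, the chemokine gene Cxcl11, the transcription factor gene Irf1, and Cd274. In Irgm2 (0.72) all 6 libraries with antibody lay above all 6 without. Tgtp1 has a near-identical neighbour, and the counting could split reads between them.

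Promoters of Gbp2 and Cxcl10, the pair of interferon gamma list genes with the largest differences, are shown because these letters hold the core of the interferon-stimulated response element (ISRE), a motif bound by interferon regulatory factors. Each runs from 250 bases before to 50 bases after the RefSeq gene start, 5′ to 3′ on the gene's strand, in the build GRCm38.p6. The expression values were made on another build, mm9. The Gbp2 window is chr3:142620413-142620712 on the plus strand, and the Cxcl10 window is chr5:92348840-92349139 on the minus strand. Capitals mark the match to the ISRE core, searched as GAAA, any 2 bases, then GAAA, on either strand.
Gbp2: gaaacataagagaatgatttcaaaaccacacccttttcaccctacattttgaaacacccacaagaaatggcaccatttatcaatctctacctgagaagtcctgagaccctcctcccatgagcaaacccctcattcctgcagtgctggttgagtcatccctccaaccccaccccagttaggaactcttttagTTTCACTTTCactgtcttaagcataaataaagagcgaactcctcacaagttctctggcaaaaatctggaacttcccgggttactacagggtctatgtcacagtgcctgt
Cxcl10: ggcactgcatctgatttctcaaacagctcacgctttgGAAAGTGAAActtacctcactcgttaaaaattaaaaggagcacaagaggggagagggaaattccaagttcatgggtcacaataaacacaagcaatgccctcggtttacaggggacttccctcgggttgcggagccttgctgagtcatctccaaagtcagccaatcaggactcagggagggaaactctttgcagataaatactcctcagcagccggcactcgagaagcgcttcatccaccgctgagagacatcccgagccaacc
The Gbp2 match, on the opposite strand, began 59 bases before the start, and the Cxcl10 match 213 bases before it. The same windows of Cxcl9 and Cd274 held no match, and none of the 4 held the gamma-activated site, searched as TTC, any 3 bases, then GAA, which reads the same on both strands. Among 22 of the 31 list genes with a promoter entry, 11 (50.0%) held the ISRE core and 8 (36.4%) the gamma-activated site. Over all 27025 promoters of the table the shares were 3.49% and 8.47%. A match describes letters only, and no match says only that these letters are not in this window.

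The target's own gene was among the rises. Cd274 had 31.3, 42.8 and 38.1 FPKM in combination, against 19.3, 24.1 and 16.2 FPKM in polyIC. It had 56.8, 61.6 and 20.5 FPKM in antiPDL1, against 20.9, 22.5 and 14.6 FPKM in control, where antiPDL1 replicate 2 was the overlap. The difference was 0.99 ± 0.24 (SE, limma adjusted p = 0.0305, exact permutation p = 0.015) and 1.2 without antiPDL1 replicate 2. Irf1, a transcription factor of the interferon response, had 112, 248 and 359.8 FPKM with antibody and 78.3, 127 and 150.0 FPKM without, and differed by 0.95 ± 0.25 (SE, limma adjusted p = 0.0415). The other PD-1 ligand gene, Pdcd1lg2, had 0.51 ± 0.19 (SE, adjusted p = 0.103, unadjusted exact permutation p = 0.02) and did not pass in limma.

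**Figure D1:**
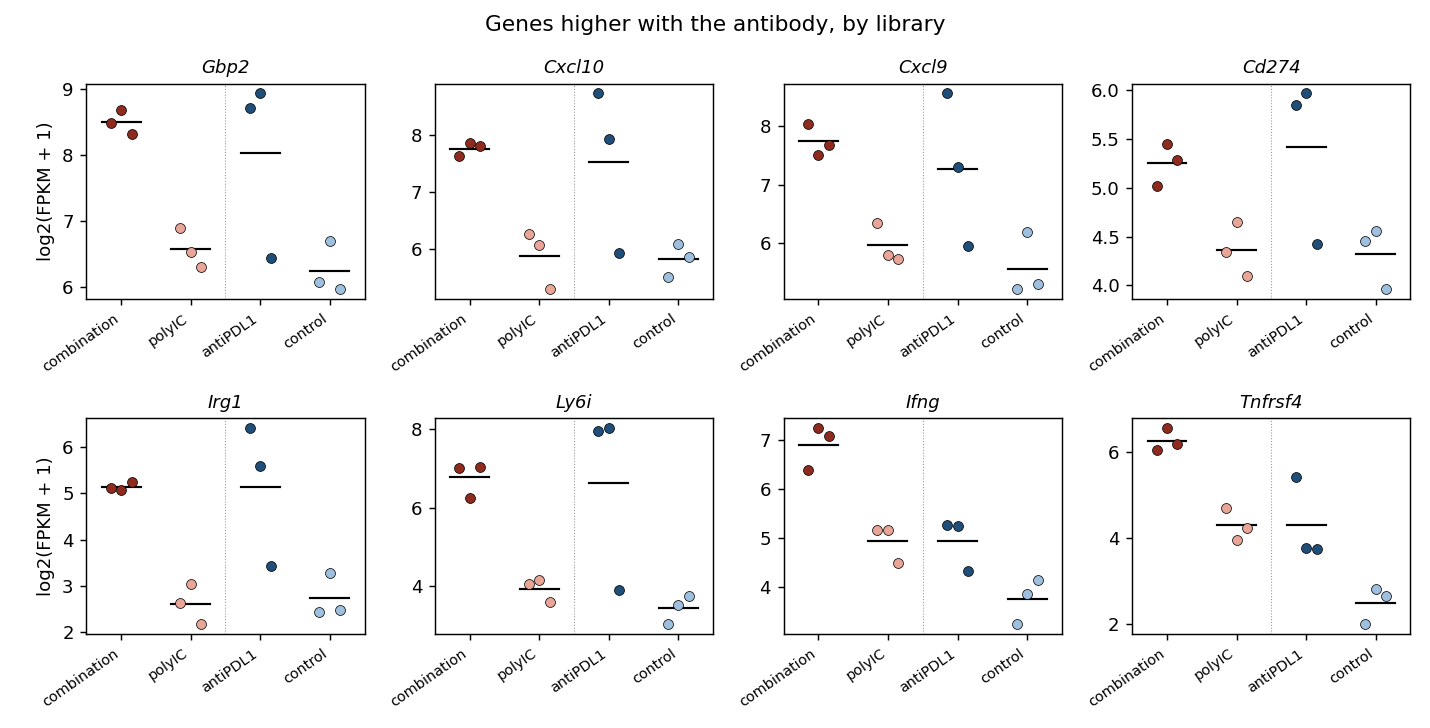
RNA level on the log2(FPKM + 1) scale of 8 genes that rose with the antibody, 1 point per library, with combination left of polyIC and antiPDL1 left of control, and a bar at each group mean of 3 libraries. In Gbp2, Cxcl10, Cxcl9, Cd274 and Ly6i the lowest antiPDL1 point, replicate 2, sits at the level of the controls, while the combination points lie together above polyIC.

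Of 32 tested genes stimulated mainly by type I interferon, 1 rose (2.7% of all genes tested did), the nucleic acid sensor gene Zbp1 (1.38 ± 0.35 SE, limma adjusted p = 0.035), and the list median was 0.20, or 0.08 without antiPDL1 replicate 1. Isg15, a ubiquitin-like modifier, had 44.4, 201 and 382 FPKM with antibody and 60.5, 81.6 and 110.0 FPKM without (adjusted p = 0.11), with antiPDL1 replicate 2 below every other library. Of 11 genes of MHC class II presentation 1 rose, the peptide-loading gene H2-DMb1 (0.76 ± 0.22 SE, limma adjusted p = 0.0497), and the median was 0.55. Without antiPDL1 replicate 2, 9 of the 32 type I genes and 8 of the 11 class II genes were called, and 27 of the 31 interferon gamma genes. Without antiPDL1 replicate 0 these counts were 0, 0 and 7.

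Irg1 had the largest difference of the 5 called genes in the macrophage activation list. Its enzyme makes itaconate, an antibacterial and anti-inflammatory metabolite of activated macrophages. Irg1 had 33.4, 32.5 and 36.8 FPKM in combination, against 5.17, 7.23 and 3.54 FPKM in polyIC. It had 83.7, 46.9 and 9.73 FPKM in antiPDL1, against 4.44, 8.65 and 4.61 FPKM in control. All 6 libraries with antibody lay above all 6 without, and the difference was 2.46 ± 0.40 (SE, limma adjusted p = 0.0107). Of 19 genes of macrophage activation and glycolysis, 5 rose, 0 fell and 14 did not pass, 6 of the 19 having a negative difference, with a median of 0.36. Without polyIC replicate 1 or combination replicate 1 the count was 1. The others called were the hypoxia factor gene Hif1a, the glucose transporter gene Slc2a1 (0.83 ± 0.18), the membrane metalloproteinase gene Mmp14 (1.39 ± 0.30) and Ldha, a lactate dehydrogenase gene. The list median was 0.21 without antiPDL1 replicate 0 and 0.59 without combination replicate 2.

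Ly6i, a member of the Ly6 family of lipid-anchored surface proteins, showed the largest rise among the genes named by the rule. It had 129, 75.3 and 132 FPKM in combination and 15.5, 16.9 and 11 FPKM in polyIC. It had 247, 261 and 13.9 FPKM in antiPDL1, against 7.15, 10.5 and 12.4 FPKM in control. The difference of 3.02 ± 0.58 (SE, limma adjusted p = 0.0174) became 3.61 without antiPDL1 replicate 2. With each library left out in turn it ran from 2.69 to 3.61. Clec4e, a receptor for glycolipids of damaged cells and mycobacteria, had 12.7, 63.3 and 157 FPKM with antibody and 5.59, 12.6 and 20.0 FPKM without, a difference of 2.02 ± 0.47 (SE, limma adjusted p = 0.0274). Il1rn, which blocks the interleukin-1 receptor, had 50.0, 73.8 and 217 FPKM with antibody and 15.1, 33.1 and 52.7 FPKM without. Its difference was 1.45 ± 0.29 (SE, limma adjusted p = 0.0177). It was the only called gene of 14 inflammatory cytokine genes, where 9.05% of all genes tested were called. The monocyte chemoattractant gene Ccl12 rose by 1.88 ± 0.38. Of 22 chemokine genes 4 rose (Cxcl9, Ccl12, Cxcl10 and Cxcl11) and 1 fell, where 2.7% of all genes tested rose and 6.35% fell. The gene that fell was Ccl17, a chemokine of dendritic cells, at -0.91 ± 0.22. Monocyte markers had a median of 0.50 with 0 of 17 called in limma. At an unadjusted p under 0.05 were 7 of the 17, against 3647 of all 11978 genes tested. The monocyte median was 0.32 without antiPDL1 replicate 0.

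T cell effector and checkpoint genes rose in part. Ifng, the cytokine gene itself, had 82.6, 151 and 135 FPKM in combination, against 35.2, 34.8 and 21.6 FPKM in polyIC. It had 37.8, 37.2 and 19.1 FPKM in antiPDL1, against 8.52, 13.6 and 16.8 FPKM in control. Both pairs of groups were fully apart, and the difference was 1.58 ± 0.25 (SE, limma adjusted p = 0.0107, exact permutation p = 0.005, the smallest that 400 arrangements within the polyIC strata can give). Gzmk, a granule protease of memory-like CD8 T cells, had 32.3, 397 and 628 FPKM with antibody and 3.89, 99.9 and 270.2 FPKM without, a difference of 2.14 ± 0.55 (SE, limma adjusted p = 0.036). Gzmb, the granzyme that starts apoptosis of target cells, rose by 1.45 ± 0.40 (limma adjusted p = 0.0449). Of 24 CD8 T cell and cytotoxic genes 4 rose, the others being Eomes and those just given, with a list median of 0.53. The list median was 0.07 for combination against polyIC and 0.94 for antiPDL1 against control. The median of 0.53 became 0.31 without control replicate 0 and 0.28 without antiPDL1 replicate 0. Cd8a (0.92 ± 0.42, adjusted p = 0.16), Cd4 (0.65 ± 0.26, adjusted p = 0.121) and the pore-forming protein gene Prf1 (0.70 ± 0.26, adjusted p = 0.0961) did not pass in limma. Their exact permutation p-values, not adjusted for the number of genes, were 0.045 for Cd8a, 0.055 for Cd4 and 0.045 for Prf1. Within the polyIC-treated pair Cd4 had 83.4, 127 and 89.0 FPKM in combination, against 39.8, 40.2 and 36.9 FPKM in polyIC, and that contrast passed (1.31 ± 0.27 SE, limma adjusted p = 0.0443). Without polyIC it had 43.1, 35.3 and 44.2 FPKM in antiPDL1, against 26.1, 42.5 and 61.8 FPKM in control. These groups overlapped, with a difference of -0.01 ± 0.27 (limma adjusted p = 0.991). The test of the difference between the pairs, an interaction term, did not call Cd4.

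Among 23 T cell markers 6 rose and 0 fell, with a median of 0.70. They were the signalling genes Cd247, Lat, Sh2d1a and Ubash3a and the surface receptor genes Cd5 and Cd6. Ctla4, an inhibitory receptor that competes with CD28, had 58.2, 131 and 102 FPKM in combination, against 43.4, 18.8 and 28.8 FPKM in polyIC. It had 44.7, 6.43 and 12.1 FPKM in antiPDL1, against 1.64, 2.74 and 4.24 FPKM in control. Each pair of groups was apart, although antiPDL1 replicate 0 was far above its own group, and the difference was 1.89 ± 0.40 (SE, limma adjusted p = 0.0207). Tnfrsf4, the costimulatory receptor OX40, had 12.4, 53.6 and 93.5 FPKM with antibody and 3.02, 10.4 and 25.2 FPKM without, a difference of 1.89 ± 0.28 (SE, limma adjusted p = 0.0101). Pdcd1, the gene of PD-1, had 204, 267 and 188 FPKM in combination and 197, 76.3 and 93.0 FPKM in polyIC. It had 153, 13.2 and 15.6 FPKM in antiPDL1 and 2.77, 8.12 and 5.17 FPKM in control, so that 1 polyIC library and 1 antiPDL1 library lay far from their groups. The difference for Pdcd1 was 1.71 ± 0.56 and did not pass in limma (adjusted p = 0.0699), with an unadjusted exact permutation p of 0.01.

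The counts of rises in the next lists stand beside 2.7% of all genes tested. Of 14 genes of the PD-1 and CD28 family, 2 rose (Ctla4 and Cd274), with a median of 0.26. Of 16 inhibitory receptor genes 3 rose, Ctla4, Havcr2 (TIM-3, 0.79 ± 0.23) and the myeloid receptor gene Lilrb4a (0.76 ± 0.20), with a median of 0.41, or 0.23 without antiPDL1 replicate 0. Among 12 regulatory T cell genes 3 rose, Tnfrsf4, Ctla4 and the chemokine receptor gene Ccr8 (1.67 ± 0.34, limma adjusted p = 0.0183), with a median of 0.69. Foxp3, the factor that defines these cells, had 2.24, 5.06 and 14.4 FPKM with antibody and 0.958, 4.53 and 9.54 FPKM without (0.44 ± 0.24, adjusted p = 0.232). In the TNF family 3 of 17 rose, Tnfrsf4, Cd40 (1.16 ± 0.30) and Tnfsf9 (0.68 ± 0.16), a receptor of antigen-presenting cells and the ligand of 4-1BB, with a median of 0.56. All 28 cell cycle genes had a positive difference, with a median of 0.77, and 9 rose, led by Ccna2 (0.95 ± 0.23), Top2a (0.93 ± 0.22) and Nusap1 (0.83 ± 0.21). The proliferation marker Mki67 was not among them (0.41 ± 0.18, adjusted p = 0.148). Without antiPDL1 replicate 2 all 28 cell cycle genes were called, and 0 were called without control replicate 0 or 1, without polyIC replicate 1 or 2, without antiPDL1 replicate 0 or 1, or without combination replicate 1.

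A few further genes of the largest rises belong to no list. Gcg, which encodes the precursor of glucagon, had 46.4, 115 and 59.6 FPKM in combination, against 6.45, 7.35 and 3.37 FPKM in polyIC. It had 5.32, 0.557 and 0.778 FPKM in antiPDL1, against 0.0603, 1.89 and 0.177 FPKM in control, so that the groups overlapped without polyIC. The difference for Gcg was 2.09 ± 0.54 (SE, limma adjusted p = 0.0364). The metal-binding protein gene Mt3 rose by 1.90 ± 0.44 (limma adjusted p = 0.0277), with 1.07, 12.5 and 23.5 FPKM with antibody and 0.217, 0.96 and 6.84 FPKM without.

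Of 29 hepatocyte genes 21 fell and 0 rose, with a median of -2.12. Fewer cells of a type and less RNA per cell cannot be told apart in bulk libraries. For hepatocytes and other cells that a CD45 capture should leave out, a difference in carryover cannot be told apart from these either. Beyond the covariate fit given last, this was not tested. Hepatocyte genes made up from 0.0854% (combination replicate 0) to 1.55% (control replicate 0) of a library's total. Alb, serum albumin, had 77.4, 121 and 144 FPKM in combination, against 640.2, 934 and 978 FPKM in polyIC. It had 276, 124 and 1000.3 FPKM in antiPDL1, against 1601, 1315 and 495 FPKM in control. Combination libraries were all far below polyIC, while antiPDL1 replicate 2 lay among the controls and control replicate 2 lay lowest of its group. The difference for Alb was -2.27 ± 0.48 (SE, limma adjusted p = 0.0207, exact permutation p = 0.01). Rbp4, the retinol carrier of plasma, had 3.45, 8.18 and 8.15 FPKM in combination, against 50.8, 75.8 and 59.1 FPKM in polyIC, and 23.2, 11.2 and 60.7 FPKM in antiPDL1, against 157, 175 and 92.4 FPKM in control. Each pair of groups was apart, and the difference was -2.75 ± 0.36 (SE, limma adjusted p = 0.00802). Ttr (transthyretin, -2.55 ± 0.42), Serpina1b (an antitrypsin, -2.55 ± 0.30) and Fabp1 (the liver fatty acid-binding protein, -2.41 ± 0.52) fell too. Serpina1b has near-identical copies, among which reads may have been split. Car3, a carbonic anhydrase gene, fell by 2.53 ± 0.52.

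Of 10 oncofetal liver genes, which are active in fetal liver and in liver tumours, 7 fell, with a median of -1.37. Igfbp1, a binding protein of insulin-like growth factors, had 1.04, 1.68 and 0.811 FPKM in combination, against 6.78, 6.07 and 12.2 FPKM in polyIC. It had 4.80, 2.56 and 14.4 FPKM in antiPDL1, against 46.6, 119 and 87.6 FPKM in control, with each pair of groups apart. The difference was -2.81 ± 0.39 (SE, limma adjusted p = 0.00946). Krt18, a keratin of simple epithelia, had 1.28, 2.52 and 6.43 FPKM with antibody and 4.63, 11.9 and 45 FPKM without, a difference of -1.96 ± 0.29 (SE, limma adjusted p = 0.0101, exact permutation p = 0.005). The imprinted non-coding RNA gene H19 fell by 2.19 ± 0.34, and Krt8, Sox4, Igf2 and Afp, the gene of alpha-fetoprotein, were also called. Of 9 epithelial and cholangiocyte genes 4 fell, with the tetraspan genes Tm4sf4 at -2.57 ± 0.37 and Tspan8 at -2.16 ± 0.42 beside both keratins. The secreted chaperone gene Clu had 4.18, 7.29 and 36.9 FPKM with antibody and 23.4, 56.0 and 129 FPKM without, a difference of -2.49 ± 0.27 (SE, limma adjusted p = 0.00802). Stellate cell genes had a median of -0.79 with 0 of 8 called in limma. At an unadjusted p under 0.05 were 6 of the 8, against 3647 of all 11978 genes tested.

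B cell genes fell almost throughout their list. Of 18 tested, 15 fell and 0 rose, and all 18 differences were negative, with a median of -1.23. Pax5, the factor that holds B cell identity, had 1.99, 0.918 and 1.81 FPKM in combination, against 3.29, 6.18 and 4.51 FPKM in polyIC. It had 1.96, 4.69 and 7.27 FPKM in antiPDL1, against 11.2, 9.44 and 26.0 FPKM in control. Each pair of groups was apart, and the difference was -1.34 ± 0.29 (SE, limma adjusted p = 0.0225). The IgE receptor gene Fcer2a (-1.53 ± 0.36) and the IgM receptor gene Fcmr (-1.39 ± 0.33) fell as well. Of 9 plasma cell genes 1 fell, Sdc1 (syndecan-1, -0.78 ± 0.15), where 6.35% of all genes tested fell. The plasma cell median was 0.001, with 5 positive and 4 negative differences, so this list as a whole did not fall. Plasmacytoid dendritic cell genes fell in 8 of 17, with a median of -1.08. That count was 0 without polyIC replicate 1 or combination replicate 1 and 1 without polyIC replicate 2 or antiPDL1 replicate 0 or 1. Siglech, their sialic acid-binding receptor, had 16.4, 34.8 and 95.9 FPKM with antibody and 49.0, 111 and 246 FPKM without (-1.52 ± 0.39 SE, limma adjusted p = 0.0366). The lectin gene Cd209d (-1.41 ± 0.40) and the surface receptor gene Cd300c (-1.35 ± 0.33) were also called, and Spib stands in this list and in the B cell list. Of 19 conventional dendritic cell genes 3 fell (Cd209a, Ccl17 and Clec10a) and 1 rose (Naaa, a lipid amidase gene, at 0.96 ± 0.22). Of all genes tested 6.35% fell and 2.7% rose. The list median was -0.15. With 1 library left out, that median ran from -0.37 without combination replicate 0 to 0.00 without combination replicate 1.

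Kupffer cell genes fell in 4 of 18, with a median of -1.18, and varied widely among libraries. Fcna, a ficolin of resident macrophages, had 44.8, 14.0 and 31.2 FPKM in combination, against 207, 364 and 233 FPKM in polyIC. It had 127, 245 and 1054 FPKM in antiPDL1, against 1855, 2361 and 335 FPKM in control, so that antiPDL1 replicate 2 and control replicate 2 each lay nearer to the other group. The difference was -2.52 ± 0.60 (SE, limma adjusted p = 0.0288). The haemoglobin scavenger receptor gene Cd163 (-2.41 ± 0.62) and the folate receptor gene Folr2 (-2.03 ± 0.53) fell, and the iron exporter gene Slc40a1 was the other one called. Clec4f, a lectin by which mouse Kupffer cells are recognised, had 5.22, 165 and 1835 FPKM with antibody and 91.6, 556 and 3683 FPKM without. It did not pass in limma (-2.47 ± 0.73, adjusted p = 0.0533, unadjusted exact permutation p = 0.02). Without antiPDL1 replicate 2, 10 of the 18 genes were called, and without control replicate 2, 14. Chp2, a calcineurin B homologous protein gene outside the lists, fell by 2.56 ± 0.62.

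Sinusoidal endothelial genes fell in 10 of 18, with a median of -1.30. With 1 library left out, 0 were called without polyIC replicate 1, 1 without polyIC replicate 2, combination replicate 1 or 2 or control replicate 0, and 15 without control replicate 2 or antiPDL1 replicate 2. Lyve1, a hyaluronan receptor, had 5.53, 2.17 and 2.49 FPKM in combination, against 21.3, 20.9 and 25.6 FPKM in polyIC. It had 5.40, 3.41 and 9.64 FPKM in antiPDL1, against 19.7, 11.9 and 7.80 FPKM in control, where the highest antiPDL1 library overlapped the lowest control. The difference was -1.74 ± 0.34 (SE, limma adjusted p = 0.0174). The liver lectin gene Clec4g (-1.61 ± 0.36) and the phosphatase gene Ptprb (-1.50 ± 0.38) were called too. In the erythroid list 3 of 7 fell, where 6.35% of all genes tested fell. Alas2, the enzyme that starts haem synthesis, was at -1.27 ± 0.23, with all 6 libraries with antibody below all 6 without. The others were the haemoglobin genes Hbb-b1 and Hbb-b2, near-identical copies among which reads may have been split. The platelet chemokine gene Pf4, the only platelet gene tested, fell by 1.41 ± 0.34.

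NK cell genes had a median of -0.69, with 0 of 20 called in limma. At an unadjusted p under 0.05 were 12 of the 20, against 3647 of all 11978 genes tested. The receptor gene Klrb1c (NK1.1) had 25.5, 14.9 and 40.3 FPKM in combination, against 74.2, 119.6 and 119 FPKM in polyIC. It had 18.6, 40.4 and 39.2 FPKM in antiPDL1, against 27.8, 41.8 and 72.3 FPKM in control, and did not pass (-1.24 ± 0.36 SE, limma adjusted p = 0.0514). The list median was -1.55 with polyIC and 0.04 without it. Neutrophil genes had a median of -0.16 and ribosomal protein genes of 0.06. The ribosomal median was -0.10 after quantile normalization, -0.07 after rescaling without Mir6236 and -0.01 after median-of-ratios rescaling. In limma 0 of 21 and 0 of 40 were called, and 5 and 3 had an unadjusted p under 0.05, against 3647 of all 11978 genes. The neutrophil and ribosomal medians both moved by over 1.5 times with 1 library left out.

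**Figure D2:**
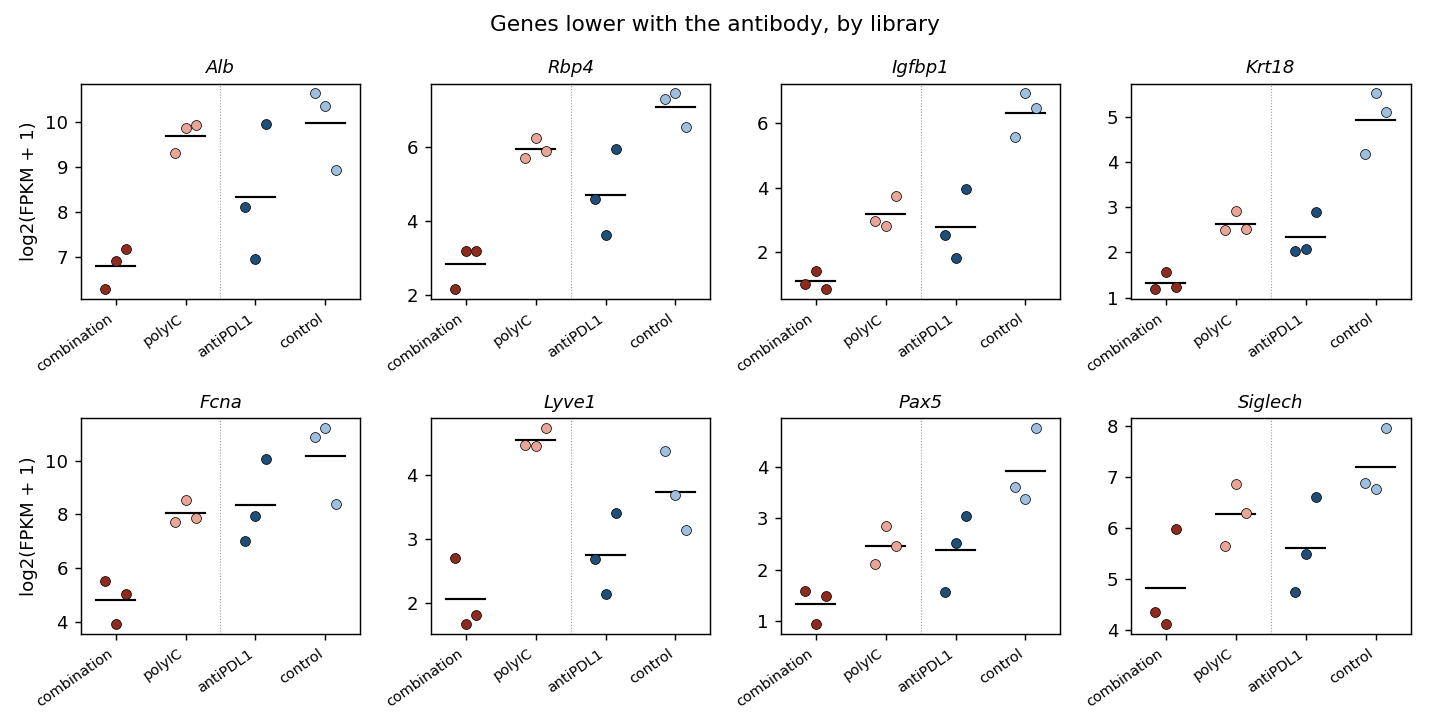
RNA level on the log2(FPKM + 1) scale of 8 genes that fell with the antibody, 1 point per library, with combination left of polyIC and antiPDL1 left of control, and a bar at each group mean of 3 libraries. The combination mean is the lowest in all 8 genes, and in Alb and Fcna the antiPDL1 library replicate 2 sits at the control level.

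**Figure D3:**
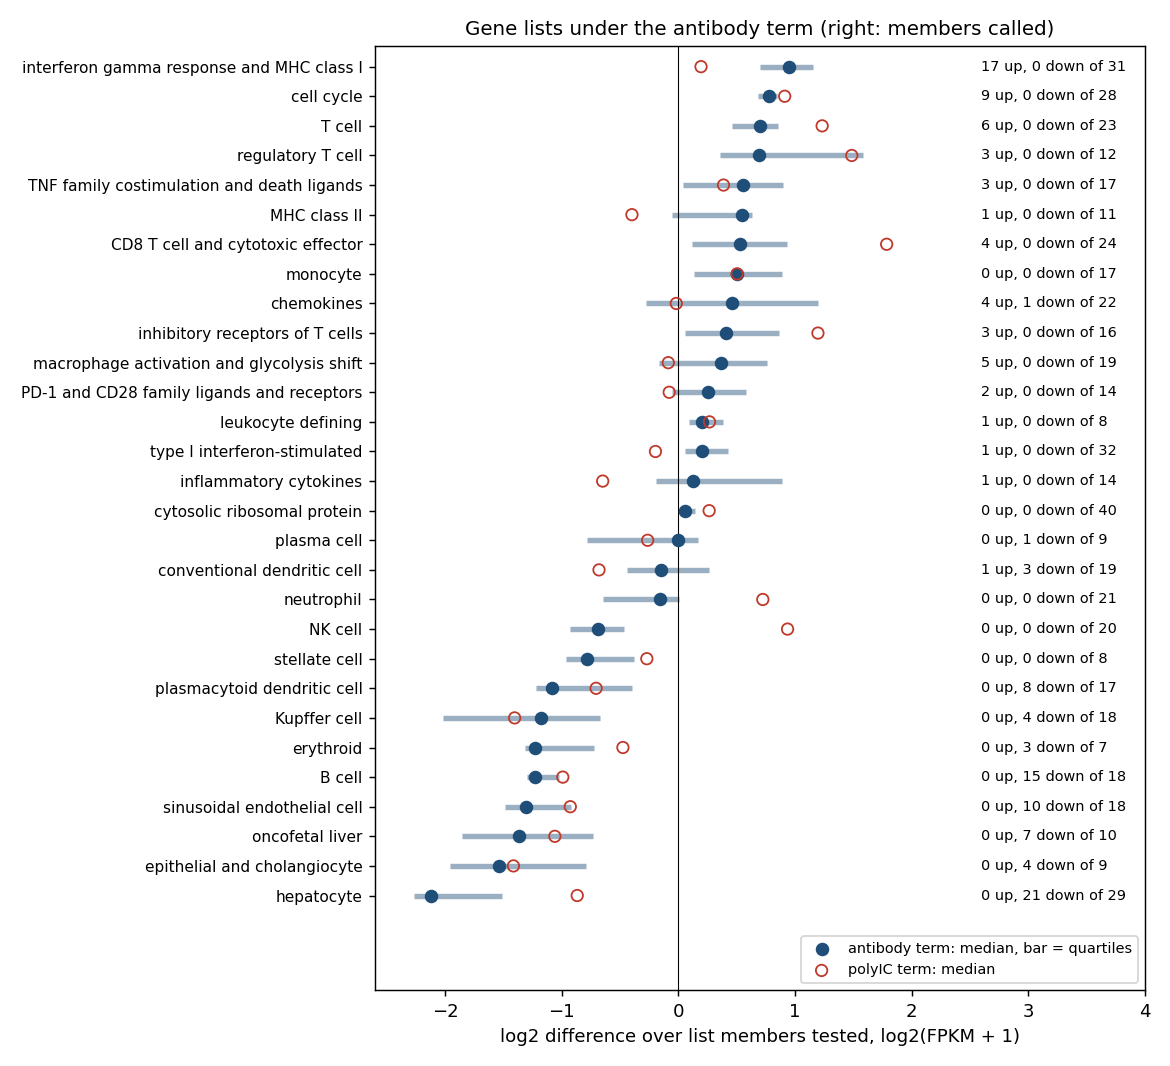
Median log2(FPKM + 1) difference of each gene list under the antibody term (filled points, bars from the lower to the upper quartile) and the median under the polyIC term (open points), with the number of members called on the right. The interferon gamma list, at 0.95, is the highest and the hepatocyte list, at -2.12, the lowest under the antibody term.

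The additive term averages an effect measured in pairs of groups that share no library, and the pairs can be set side by side. Combination against polyIC gave 19 genes higher (0.159% of genes tested) and 130 lower (1.09%), 1.24% together. The number called in that pair was 3 after quantile normalization, 18 and 7 after rescaling by median of ratios and without Mir6236, and 0 to 534 with 1 library left out. AntiPDL1 against control gave 1 higher (0.00835%) and 31 lower (0.259%), 0.267% together, and 1 to 2087 genes with 1 library left out. All 323 rises and all 761 falls of the main effect had the same sign in both pairs, which the averaging favours, against 76.1% of all genes tested. Of the 31 genes called lower in antiPDL1 than in control, 30 were also lower in combination than in polyIC, with a median of -0.51, where 42.5% of all genes were lower. Of the 130 called lower in combination, 122 were lower in antiPDL1, with a median of -1.0, where 49.1% of all genes were lower. Of the 19 called higher in combination, 16 were higher in antiPDL1, with a median of 0.70, where 50.9% of all genes were higher. Across all genes the differences of the pairs correlated at r = 0.608, a description over 11978 genes that share libraries and are not replicates.

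The lists differed in size between the pairs, and some in sign. Interferon gamma genes had a median of 0.84 with polyIC and 0.93 without, and B cell genes -1.19 in both. Hepatocyte genes had -2.62 with polyIC and -1.36 without, Kupffer genes -2.05 and -0.51, and epithelial genes -0.41 and -2.17. In the same order, cytotoxic genes had 0.07 and 0.94, neutrophil genes -0.65 and 0.31, and ribosomal protein genes -0.14 and 0.24. The test of the difference itself, an interaction term, called 2 genes of 11978 (0.0167%), 1 in each direction (0.00835%). They were Orm2 and the small RNA gene Mir760, and 288 had an unadjusted p under 0.05. No difference between the pairs was therefore called for any list member, Orm2 and Mir760 being in none of the lists. The fit without antiPDL1 replicate 2 and control replicate 2 called 5 genes.

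**Figure D4:**
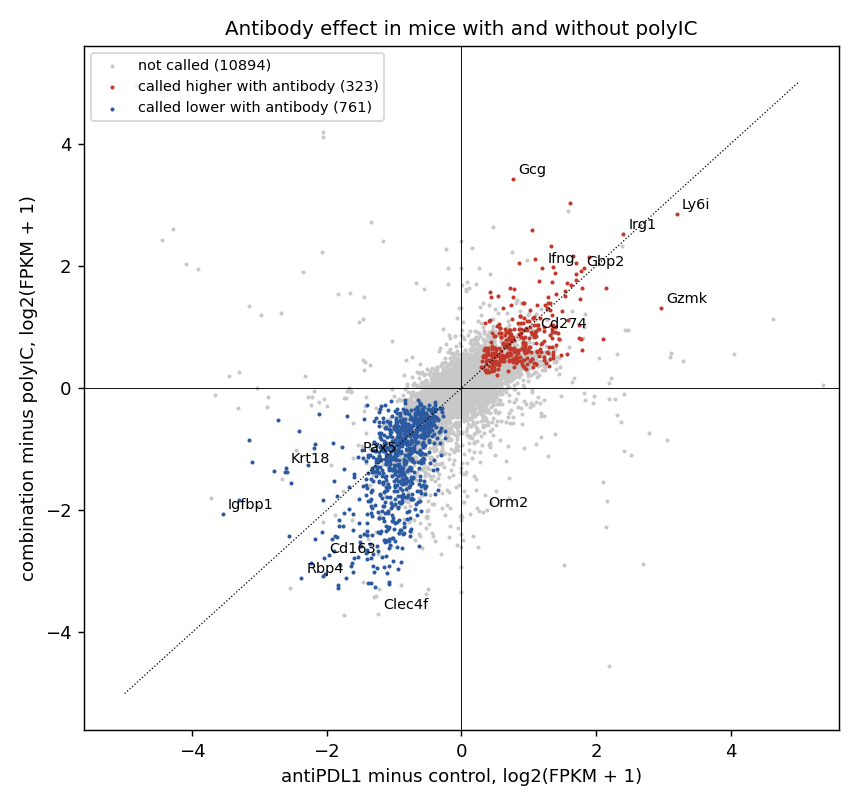
Antibody effect on each of 11978 genes in mice without polyIC (antiPDL1 minus control, horizontal) and with polyIC (combination minus polyIC, vertical), both as differences of log2(FPKM + 1), with the 323 genes called higher in red and the 761 called lower in blue. Called genes lie at the upper right and lower left, and the dotted line marks equal effects.

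The antibody term was set against the polyIC term of the same fit, which called 916 genes higher (7.65%) and 962 lower (8.03%), 15.7% together. With all 12 libraries, the difference of the terms equals the antiPDL1 mean minus the polyIC mean, 3 libraries against 3. It therefore includes antiPDL1 replicate 2. Control and combination libraries enter only the estimate of the spread. The difference of the terms was called for 0 genes in limma, with 527 higher and 727 lower at an unadjusted p under 0.05. With robust variance estimation 1 gene was called, and without antiPDL1 replicate 2 and control replicate 2 the count was 782. The interferon gamma list had a median of 0.95 under the antibody and 0.19 under polyIC, and Cd274 had 0.99 ± 0.24 and -0.06. The difference of these terms for Cd274 was 1.05 and did not pass (limma adjusted p = 0.301), nor did that for Irg1 (2.52, adjusted p = 0.163) or Gbp2 (1.45, adjusted p = 0.337). Il1rn came nearest among the genes named, with 1.45 under the antibody, -0.95 under polyIC and a difference of 2.40 (limma adjusted p = 0.0888). Tnfrsf4 and Ifng had nearly the same value under both terms, with differences of 0.01 for each. B cell genes were lower under both, at -1.23 and -0.99, and NK cell genes had -0.69 under the antibody and 0.94 under polyIC.

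The number of calls rested on single libraries. Without antiPDL1 replicate 2, 2081 genes were higher and 1389 lower, and without control replicate 2, 437 and 1398. Leaving out polyIC replicate 1 left 19 higher and 115 lower, and leaving out combination replicate 1 left 29 and 154. The total was 411 and 435 without control replicates 0 and 1, 296 without polyIC replicate 2, 319 and 336 without antiPDL1 replicates 0 and 1, and 597 and 352 without combination replicates 0 and 2. Without polyIC replicate 0 it was 728. All 1084 genes kept their sign in each of these 12 runs, and 130 (19 higher and 111 lower) stayed under the threshold in every run. Among the genes named here the rises Ly6i, Irg1, Ifng, Il1rn and Tnfrsf4 did so, and the falls Igfbp1, Rbp4, Ttr, Serpina1b, Clu, Krt18, Tm4sf4, Tspan8, H19, Sdc1 and Alas2. Gbp2, Cxcl9, Ccr8 and Lyve1 missed it in 1 run each, without polyIC replicate 1, with limma adjusted p-values of 0.0516, 0.0522, 0.0519 and 0.0519. Cd274 passed in 3 of the 12 runs, Gzmb in 2 and Alb in 9.

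**Figure D5:**
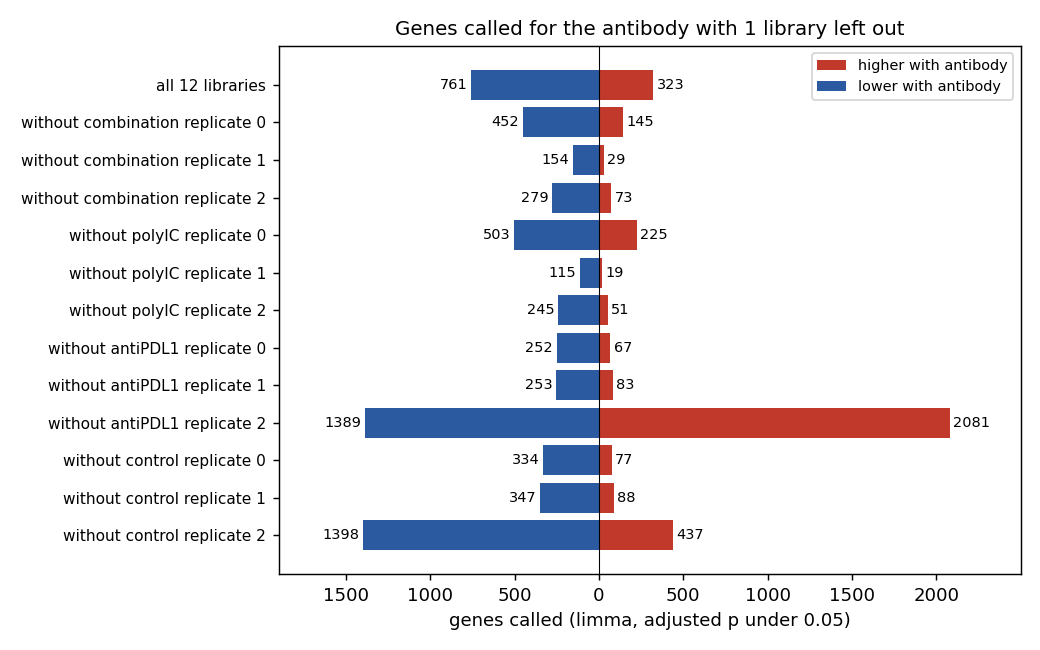
Number of genes called higher (right) and lower (left) with the antibody in limma at an adjusted p under 0.05, with all 12 libraries and with each library left out in turn. The longest bar on the right, 2081, belongs to the fit without antiPDL1 replicate 2. The longest on the left, 1398, belongs to the fit without control replicate 2. The shortest bars on both sides belong to the fit without polyIC replicate 1.

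List counts moved with the same libraries. Of the 17 interferon gamma genes called, 0 were left without polyIC replicate 1 and 3 without combination replicate 1. Of the 21 hepatocyte genes, 8 were left without polyIC replicate 1, and of the 15 B cell genes 1 was left without polyIC replicate 1, polyIC replicate 2 or combination replicate 1. The T cell, Kupffer and cell cycle lists had 0 called in the runs without control replicate 0 or 1, without polyIC replicate 1 or 2, without antiPDL1 replicate 1, or without combination replicate 1. Their medians kept their sign in all 12 runs. Without polyIC replicate 1, 0 genes were called in the PD-1 and CD28 family, inhibitory receptor, chemokine, conventional dendritic cell and platelet lists. The same run left 1 called in each of the cytotoxic, regulatory T cell, TNF family and erythroid lists.

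When the mean level of the hepatocyte list in each library was added to the fit as a covariate, limma called 0 genes, with 748 at an unadjusted p under 0.05. That mean and polyIC together shared 67.2% of the antibody term. The difference was then 1.71 for Irg1, 0.94 for Gbp2, 0.74 for Cd274, 0.84 for Ifng and 2.14 for Ctla4, and 954 of the 1084 genes kept their sign. The list medians were 0.34 for interferon gamma genes, 0.28 for T cell genes, -1.26 for B cell genes, -0.97 for plasmacytoid dendritic cell genes, -1.88 for epithelial genes, -1.40 for erythroid genes, -0.29 for sinusoidal endothelial genes and -0.03 for Kupffer cell genes. The part of hepatocyte RNA in these differences was not tested beyond this fit.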

How the data were processed

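RNA of CD45-positive liver cells was sequenced from stranded mRNA libraries, 3 per group in 4 groups. Per the submitters' processing notes the authors used Cuffdiff and the build mm9; the sources used here give no versions. The deposited table does not name its unit, and its values were taken as FPKM. Its 24319 entries were used as deposited. Left out were 22 genes at 0 in a whole group but at 5 FPKM or more in every library of another, which included Actb, Apoe and Cd74. Genes reaching 1 FPKM in 3 libraries or more were tested with limma 3.58.1 (trend) in R 4.3.3 on log2(FPKM + 1), with antibody and polyIC as terms. Single genes of a panel of 18 were also tested by exact two-sided permutation of antibody labels within polyIC strata. All permutation p-values are unadjusted for the number of genes, unlike the adjusted limma values beside them. The fit was tested on simulated data. FPKM hold no read counts, so depth is known only relative to the deepest library.

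Genes were named by rule: the 10 largest called rises and falls with the same sign in both polyIC strata (predicted genes, small RNA genes and receptor segments left out), up to 3 called members of each of 30 lists (or the member of smallest adjusted p), and the panel. Other members named were chosen after their values were seen. Members, lists and tests were chosen with earlier results of these data known. Same-numbered libraries did not deviate together (correlations of 18 pairs from -0.29 to 0.32), so the numbers were not taken as pairs. Alternatives changed the pseudocount, filter, scaling, terms, weights and libraries. Promoter sequences are RefSeq's, from GRCm38.p6. Some genes that these choices named are not reported here.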

Additional observations from a re-analysis of the deposited data

Results flagged for a closer look

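The antibody effect differed with polyIC by the interaction test in limma for 2 genes. Orm2, an acute-phase orosomucoid gene of hepatocytes, had 1.12, 1.71 and 1.25 FPKM in combination, against 11.2, 9.19 and 6.16 FPKM in polyIC. It had 1.35, 0.796 and 0.738 FPKM in antiPDL1, against 0.679, 0.703 and 0.329 FPKM in control. The effect was -2.03 with polyIC (adjusted p = 0.012) and 0.32 without (adjusted p = 0.446), a difference of -2.35 (limma adjusted p = 0.0445). The small RNA gene Mir760 was listed at 7.86, 10.9 and 4.21 FPKM in control and at 0 in the other 9 libraries, so its difference of 3.04 (limma adjusted p = 0.0207) comes from the control libraries and no fold is given.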

How the results depend on the processing

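Every count here is of genes at a limma adjusted p under 0.05. With all settings as reported they were 1084 for the antibody (323 higher, 761 lower), 0 for antibody minus polyIC, 32 without polyIC, 149 with polyIC and 2 for the interaction. With a pseudocount of 0.1 the last 4 were 2, 20, 342 and 0. With no filter 158 genes were higher, 139 were called without polyIC and 23 with it. With a mean of at least 5 FPKM the antibody gave 411 (144 higher, 267 lower), the pairs 5 without and 75 with polyIC, and the interaction 0. Quantile normalization gave 420 lower, and 3 with polyIC. The count with polyIC was 18 after median-of-ratios rescaling and 7 after rescaling without Mir6236, which moved the median of all genes from 0.03 to -0.08. No polyIC term gave 0 genes (0 higher, 0 lower), although 2669 passed unadjusted at 0.05. Array weights gave 4549 (2400 higher, 2149 lower), 797 for antibody minus polyIC, 2594 without and 3661 with polyIC, and 12 for the interaction. Robust variance estimation gave 1 for antibody minus polyIC, and keeping the genes at 0 in a whole group gave 12 for the interaction. The hepatocyte covariate gave 0 (0 higher, 0 lower), 2, 1, 0 and 1. Alb changed sign to 0.0046, but it belongs to the list whose mean is the covariate, which draws its value toward 0. Without control replicate 2 and antiPDL1 replicate 2 the counts were 3884 (2065 higher, 1819 lower), 782, 3378, 1104 and 5. With each library left out in turn they ran from 134 to 3470 (19 to 2081 higher, 115 to 1398 lower), 0 to 294, 1 to 2087, 0 to 534 and 0 to 5. The cause of these shifts was not tested.

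With the replicate number as a block, 568 genes were higher and 721 lower, and 2 were called with polyIC. Same-numbered libraries correlated at a median of 0.027, and 4 of 18 pairs were over 0.1. Depth cannot be turned into counts from FPKM, so low genes carry an unknown counting error.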

Other observations

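In limma 19 rises passed in all 12 runs with 1 library left out, among them Ly6i, Irg1, Ifng, Il1rn and Tnfrsf4. Those described here belong to none of the lists and were chosen after their values were seen. Slamf8, a SLAM family receptor of myeloid cells, had 39.0, 98.2 and 159 FPKM with antibody (lowest, median and highest of 6) and 23.3, 29.5 and 36.6 FPKM without. Sod2, the mitochondrial superoxide dismutase, had 30.8, 53.9 and 74.9 FPKM with antibody and 23.0, 24.0 and 26.9 FPKM without. Both had all 6 libraries with antibody above all 6 without, with differences of 1.64 ± 0.28 for Slamf8 and 1.04 ± 0.17 for Sod2 (SE). Dram1, a lysosomal modulator of autophagy, had 20.5, 33.6 and 54.1 FPKM with antibody and 8.15, 13.7 and 18.6 FPKM without. Slc31a1, the copper importer of the plasma membrane, had 23.8, 33.3 and 38.6 FPKM with antibody and 12.9, 18.3 and 20.7 FPKM without. These groups did not overlap either. Among all genes tested, 88 (0.735%) had groups that did not overlap.

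Il21, a cytokine gene of activated CD4 T cells, had 9.96, 24.2 and 19.9 FPKM in combination, against 2.95, 1.52 and 1.64 FPKM in polyIC. It had 2.88, 1.27 and 1.53 FPKM in antiPDL1, against 0.163, 0.668 and 0.285 FPKM in control. Each pair of groups was apart, as in 534 of all 11978 genes tested. The difference for Il21 was 1.82 ± 0.31 (SE, limma adjusted p = 0.0124). S100a4, a calcium-binding protein gene of motile cells, had 610.2, 2443 and 4338 FPKM with antibody and 223, 734 and 1195 FPKM without, a difference of 1.72 ± 0.32 (SE).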
